A study of Mus musculus with 12 samples.

Results

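Collagen genes were followed in the copy-number tables of 15376T and 14837T, cell lines from mouse pancreatic ductal adenocarcinoma (PDAC). Members were all names made of Col, a number, the letter a and a number in the autosomal segments of both lines, which gave 42 genes of 21139 autosomal gene names. The members comprised 11 fibrillar genes, 4 basement-membrane genes of type IV and 27 other collagen genes, and they lay on 14 of the 19 autosomes. Col4a5 and Col4a6 lie on chromosome X and were not included. The lines were isolated from C57BL/6 mice with ROSA_rtTA, p48-Cre and a floxed Trp53 allele (Trp53 L/+), and were kept in doxycycline. Cre in this model acts in the pancreas, where p48 (Ptf1a) is active. The labels give the genotype of both lines as WT, in contrast to the LIN28B knockout that other samples carry. Each line is represented by 1 exome library without a replicate, named WES-15376T or WES-14837T and called 15376T and 14837T here, so differences between them could not be tested and are given as a description. The tables hold DNA values only, so the labelled cell type was not checked against markers.

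Collagens are proteins whose chains are wound into a triple helix, held together by a glycine at regular steps along each chain. Fibrillar collagens assemble into the fibrils of tendon, skin, bone and scar. Type IV collagens form the sheet-like network of basement membranes, on which epithelial cells rest. In PDAC, fibrillar collagens of types I and III make up much of the dense stroma, and they are produced mainly by fibroblasts. Tumor cells meet these proteins through integrins and discoidin domain receptors. Copy number in the DNA of tumor cells is not a measure of the collagen that a tumor contains.

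Type IV genes lie in pairs that start beside each other and run in opposite directions, so that the partners share a start region. The RefSeq promoter windows of Col4a1 and Col4a4 are shown because they contain the overlap of both partners. Col4a1 and Col4a2 overlap by 85 bases and Col4a3 and Col4a4 by 114 bases in RefSeq (GRCm38.p6). The window of Col4a1 is chr8:11312777-11313076 on the minus strand and that of Col4a4 is chr1:82586800-82587099 on the minus strand, with the overlap of the partners in capitals. Another window, chr1:45311288-45311587 on the plus strand, is that of Col3a1. It is shown because it lies in the gap between neighboring segments of 14837T with different copy-number calls. Its capitals mark the bases from the start of the gene onward.
Col4a1: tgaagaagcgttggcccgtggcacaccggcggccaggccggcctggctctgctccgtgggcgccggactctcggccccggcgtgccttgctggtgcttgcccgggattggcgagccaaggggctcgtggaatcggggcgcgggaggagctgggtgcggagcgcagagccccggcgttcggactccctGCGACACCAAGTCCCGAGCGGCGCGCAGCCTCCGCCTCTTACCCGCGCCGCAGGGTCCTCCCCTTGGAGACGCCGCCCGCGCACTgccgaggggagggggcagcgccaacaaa
Col4a4: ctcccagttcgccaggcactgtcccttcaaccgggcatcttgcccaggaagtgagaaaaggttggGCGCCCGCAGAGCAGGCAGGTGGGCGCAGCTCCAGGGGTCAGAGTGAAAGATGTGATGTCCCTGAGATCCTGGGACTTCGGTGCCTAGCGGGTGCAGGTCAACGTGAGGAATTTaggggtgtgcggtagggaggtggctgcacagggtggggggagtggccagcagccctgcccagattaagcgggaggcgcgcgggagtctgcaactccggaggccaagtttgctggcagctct
Col3a1: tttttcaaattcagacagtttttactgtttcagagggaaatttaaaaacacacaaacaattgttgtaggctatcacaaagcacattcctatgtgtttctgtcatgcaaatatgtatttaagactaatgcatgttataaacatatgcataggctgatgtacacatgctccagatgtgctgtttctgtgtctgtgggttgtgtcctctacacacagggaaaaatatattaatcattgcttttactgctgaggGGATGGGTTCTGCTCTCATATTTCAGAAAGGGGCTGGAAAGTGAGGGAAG

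The GC content of these windows was 74.0% for Col4a1, 63.3% for Col4a4 and 37.7% for Col3a1, where the median of all 32817 RefSeq promoter windows was 52.7%. Common promoter motifs were searched on both strands. The first, the CAAT box with the letters CCAAT, was present in 37.4% of all windows and in 33.3% of the 36 windows that the RefSeq table holds for 33 of the collagen genes. The GC box, GGGCGG, was present in 35.6% and 58.3%. The TATA box, as the letters TATAAA, was present in 13.6% and 13.9%. Col4a1 held the CAAT box and the GC box at 1 position each, Col3a1 the TATA box at 1 position and Col4a4 none of the 3. The matches did not overlap each other. A match is a run of letters and does not show that a factor binds there.

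For each segment, a run of neighboring bins with a common coverage, the authors deposited a log2 ratio of coverage over a reference, a whole-number copy call, a mean read depth and the number of bins. Most segments also have a B-allele fraction (BAF), the share of reads at variant sites that carry the alternative base. There were 183 autosomal segments in 15376T and 224 in 14837T. A log2 above 0.2 was called as a gain and a log2 of -0.25 or below as a loss. Segments called at 2 copies had an SD of log2 of 0.090 (103 segments, 15376T) and 0.095 (96 segments, 14837T), which served as the only available measure of spread. Such segments lie between the call thresholds by definition, so this SD is not the error of a segment. Mean depth over the 2-copy segments was 46.0 and 47.5. The reference is not named and may be common to the lines, so a likeness between the lines is not independent evidence.

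In 15376T, 4 of 42 collagen genes were called gained (9.52%), 13 lost (31.0%) and 22 at 2 copies. The remaining 3 were divided between segments of different calls. Over all 21134 autosomal genes with a place in the tables, 9.13% were called gained and 30.0% lost, so the collagen genes lay near the background. In 14837T, 8 collagen genes were called gained (19.0%) and 9 lost (21.4%), with 21 at 2 copies and 4 divided. The background there was 21.4% gained and 28.7% lost. The median log2 of the collagen genes was -0.070 in 15376T and -0.048 in 14837T, beside -0.023 and -0.045 over all genes. Both medians of the collagen genes lay within 1 SD of 2-copy segments from those of all genes. This SD describes single segments and is not the spread of a median. Many members share a segment and so share a value, since the 42 genes lay in 29 segments of 15376T and 32 of 14837T.

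**Figure D1:**
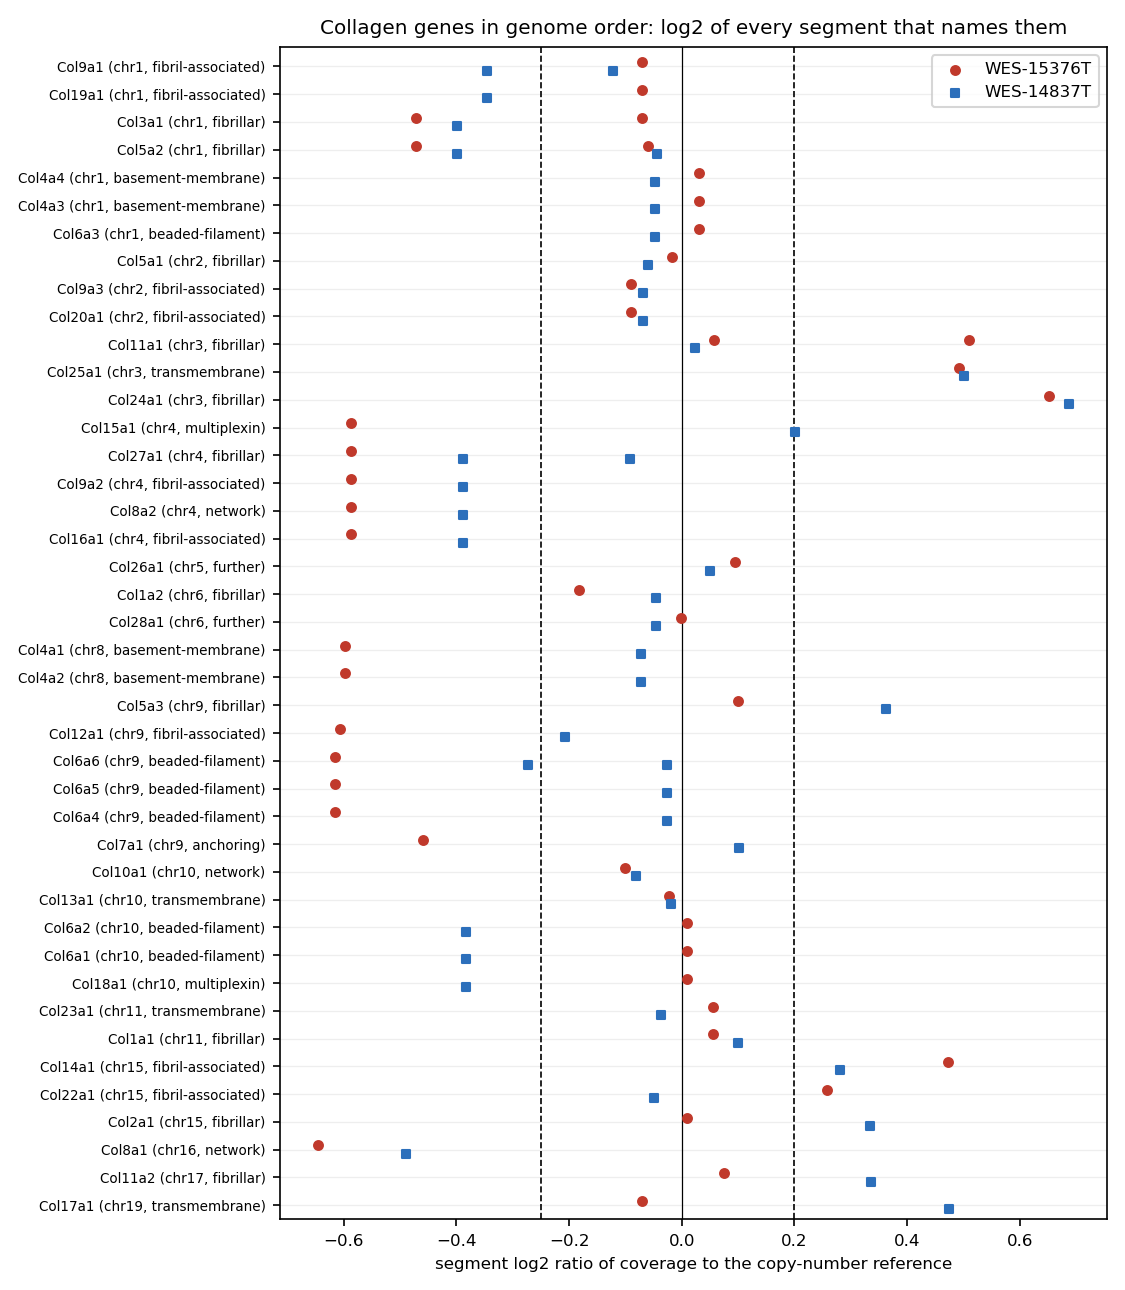
Segment log2 ratio (horizontal axis) of the 42 autosomal collagen genes in genome order (vertical axis), with WES-15376T as circles and WES-14837T as squares. Dashed lines mark the thresholds for a loss (-0.25) and a gain (0.2), and a gene in several segments has several points, as Col3a1, Col5a2 and Col11a1 have in WES-15376T.

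A few fibrillar genes lay in whole or in part in segments that named few genes, with a call unlike that of both neighboring segments. Col3a1 encodes the chain of type III collagen, and Col5a2 a chain of type V collagen, which regulates fibril diameter. The genes are neighbors on chromosome 1, with 24.6 kb between them. In 15376T, a segment at chr1:45332901-45443743 of 81 bins named only these 2 genes and had a log2 of -0.47, which was called as 1 copy. The segments on either side had log2 values of -0.070 and -0.060 and were called at 2 copies. In 14837T, a segment at chr1:45311700-45443743 of 100 bins named the same 2 genes and had a log2 of -0.40, between flanks of -0.074 and -0.044. It was called as 1 copy, and no other segment of that line named Col3a1. The right border was at the same base in both lines, inside Col5a2. The left border differed. It lay inside Col3a1 in 15376T, whereas in 14837T the preceding segment ended at 45311199 and the Col3a1 promoter window printed above lay in the gap between the segments. Of the segments that named at most 2 genes, those of collagen genes alone were 2 of 9 in 15376T and 1 of 4 in 14837T. Collagen genes were 42 of 21139 autosomal gene names. The segment of 14837T is the one over Col3a1 and Col5a2, which 15376T has as well, so the counts are few and not separate.

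The read depth of the lines over Col3a1 and Col5a2 did not drop with the log2 ratio. Over the segment, depth was 43.6 in 15376T, beside 43.1 before it and 50.6 after it. In 14837T it was 48.6, beside 46.0 and 51.7. The log2 ratio differed from the mean of the flanks by -0.41 in 15376T and by -0.34 in 14837T. The segments were picked for a call unlike that of their flanks, so these differences are a description. The log2 of depth differed from the flanks by -0.10 and -0.0045. Within the segment of 15376T, Col3a1 had a depth of 42.0 over 30 bins and Col5a2 of 45.8 over 50 bins. The coverage of the reference was not analysed here, and its part in the low log2 ratio was not tested. No BAF was given for the segment in either line. In 14837T the segment's absolute log2 lay just below 0.404, the smallest at which that line's gene table lists a gene, so neither gene has a depth of its own there.

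Col11a1 encodes a chain of type XI collagen of cartilage and of the core of thin fibrils. It lay in whole or in part in a 2-copy segment between gained segments of chromosome 3. In 15376T the gene was cut by a border. The part at lower coordinates, with 15 bins and a depth of 70.5, lay in a segment with a log2 of 0.51 called at 3 copies. The rest lay in a segment at chr3:114105328-114356283 of 51 bins that named no other gene and had a log2 of 0.058, called at 2 copies. The next segment was again gained, with a log2 of 0.49. In 14837T, Col11a1 lay whole in a segment of 89 bins at chr3:113613717-115102032 with Rnpc3 and Olfm3, with a log2 of 0.023 between gained flanks of 0.42 and 0.50. The depth of 15376T was 67.5 in the Col11a1 segment, beside 71.0 and 64.8 in the gained flanks. The log2 ratio differed from the mean of the flanks by -0.44 and the log2 depth by -0.0070. In 14837T the log2 ratio differed by -0.43 and the log2 depth by -0.077. Depth in the segment there was 53.8, between unlike flanks of 47.0 before it and 68.5 after it. It thus lay below the depth of the flank after the segment. In 15376T, the depth of the Col11a1 segment was close to that of its gained flanks. Depth has no normalization, and it also departed from the log2 ratio outside the segment. The flank before it in 14837T had a log2 of 0.42 but a log2 depth of -0.016 relative to 2-copy segments. What sets depth and log2 ratio apart was not tested.

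**Figure D2:**
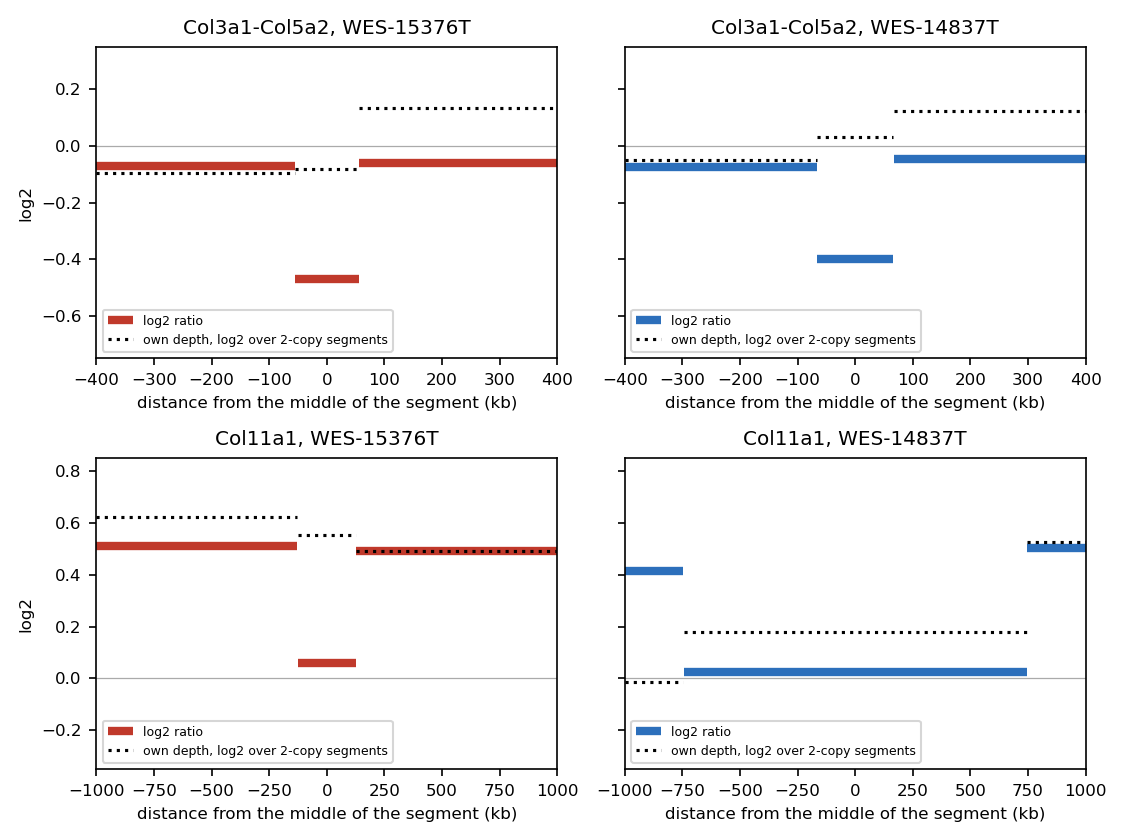
Segment log2 ratio (thick lines) and log2 of the line's own depth relative to its 2-copy segments (dotted lines) around the Col3a1-Col5a2 segment (top) and the segment with Col11a1 (bottom), against distance from the middle of that segment in kb. The log2 ratio inside differed from the flanks by -0.41 and -0.34 (top) and by -0.44 and -0.43 (bottom), and the log2 depth by -0.10, -0.0045, -0.0070 and -0.077.

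The other fibrillar genes lay in longer segments. Col1a1 and Col1a2 encode the chains of type I collagen, the most abundant collagen of the body, and each was called at 2 copies in both lines. Col1a1 had a log2 of 0.056 in 15376T and 0.100 in 14837T, and Col1a2 of -0.18 and -0.045. The BAF of the segment with Col1a1 was 1 in 15376T and 0.056 in 14837T. Among the 27 segments with collagen genes and a BAF in 15376T, it was the only one at 0.5 or above, where the median was 0.068. That segment names 1242 genes of chromosome 11, Col23a1 among them, so its BAF is not particular to Col1a1. The number of variant sites behind a BAF is not given in the tables. In 14837T the BAF of the 31 collagen segments that have one ran from 0.019 to 0.40 with a median of 0.067. The highest was that of a segment of 1019 genes, Col1a2 and Col28a1 among them. Over all autosomal segments the median BAF was 0.077 in 15376T and 0.062 in 14837T. Col5a1, which encodes the main chain of type V collagen, had log2 values of -0.017 and -0.060 and was at 2 copies in both.

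Gained fibrillar genes numbered 1 of 11 in 15376T and 4 of 11 in 14837T, where the share of all genes called gained was also higher in 14837T (9.13% and 21.4%). With calls from an absolute log2 of 0.5 there was 1 in each line. Col24a1, a minor fibrillar collagen gene of developing bone, was gained in both lines, with a log2 of 0.65 in 15376T and 0.69 in 14837T, the highest values of any collagen gene in either line. Col5a3 (0.099 and 0.36), Col2a1 of cartilage (0.0086 and 0.33) and Col11a2 (0.074 and 0.34) were called at 2 copies in 15376T and 3 copies in 14837T. These 3 differences ran from -0.26 to -0.33. The genes are grouped here because their calls differ, and the error of a difference between the lines is unknown. Col27a1 was called lost in 15376T, with a log2 of -0.59. In 14837T it was divided, with the part at lower coordinates in a segment of -0.091 and the rest in a segment of -0.39. In all, 1 of 11 fibrillar genes was called gained, 1 lost, 6 at 2 copies and 3 divided in 15376T, with 4, 1, 4 and 2 in 14837T. The shares of all genes were 9.13% gained and 30.0% lost in 15376T, and 21.4% and 28.7% in 14837T. The median log2 of the class was 0.0086 in 15376T and 0.023 in 14837T.

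The partners of each basement-membrane pair had the same call in each line. Col4a1 and Col4a2 encode the chains of the type IV collagen found in almost every basement membrane. They lay in one segment of chromosome 8 in each line, which was called at 1 copy in 15376T (log2 -0.60) and at 2 copies in 14837T (log2 -0.072). The difference of -0.52 was accompanied by a difference of -0.57 in log2 segment depth, which was 28.1 in 15376T and 43.0 in 14837T. Coverage enters the log2 ratio as well, so these differences are not independent of each other. In 15376T the genes had depths of their own of 28.2 over 50 bins (Col4a1) and 29.9 over 48 bins (Col4a2), so both partners were at the level of the segment. Col4a3 and Col4a4 encode chains of the kidney glomerulus and inner ear. They shared a segment of chromosome 1 called at 2 copies in each line, with log2 values of 0.031 in 15376T and -0.048 in 14837T. No border separated the partners of either pair. With 4 genes in 2 segments, the class offers 2 separate values per line. It held 2 lost genes in 15376T and none in 14837T, where 30.0% and 28.7% of all genes were lost. Its median log2 was -0.28 and -0.060.

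**Figure D3:**
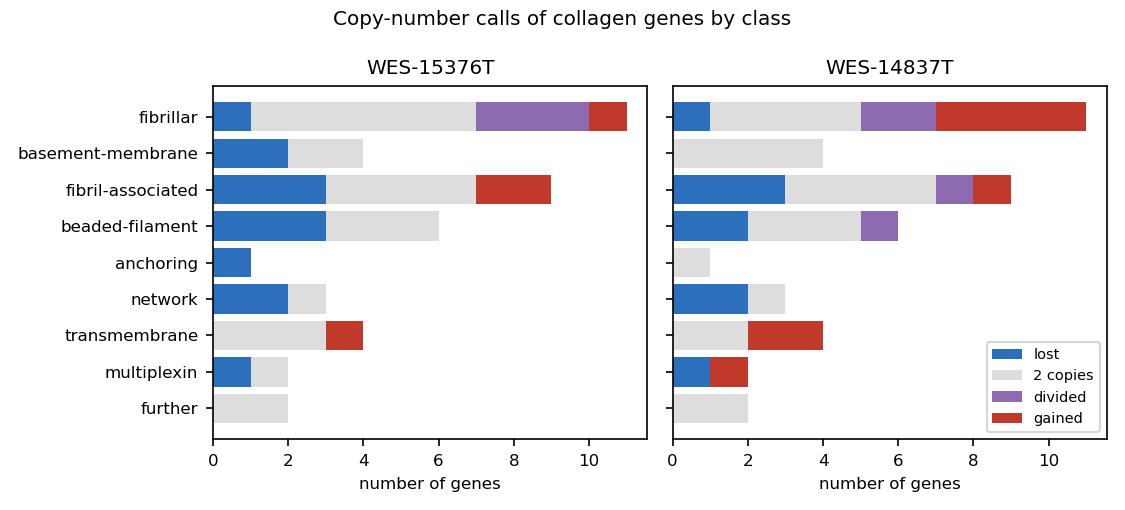
Number of collagen genes (horizontal axis) called lost, at 2 copies, divided between calls or gained, by class (vertical axis), in WES-15376T (left) and WES-14837T (right). Of the 11 fibrillar genes 3 were divided in WES-15376T and 4 were gained in WES-14837T, and the 4 basement-membrane genes were all at 2 copies in WES-14837T.

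Among the other 27 collagen genes, 3 were called gained, 10 lost and 14 at 2 copies in 15376T, with 4, 8 and 13 and 2 divided in 14837T. The shares were 11.1% gained and 37.0% lost in 15376T, and 14.8% and 29.6% in 14837T, beside 9.13% and 30.0%, and 21.4% and 28.7%, of all genes. The median log2 was -0.071 and -0.069. Beaded-filament genes encode type VI collagen, which forms microfibrils around cells. Col6a4, Col6a5 and Col6a6, a cluster on chromosome 9, were called at 1 copy in 15376T with a log2 of -0.62. In 14837T Col6a4 and Col6a5 were called at 2 copies (log2 -0.026), and a border inside Col6a6 divided it between that segment and one of -0.27, just beyond the threshold for a loss. Segment depth was 49.2 and 46.9 on the 2 sides of this border. Col6a1 and Col6a2, 85.2 kb apart on chromosome 10, went the other way, from 2 copies in 15376T (log2 0.0100) to 1 copy in 14837T (log2 -0.38). Col6a3 on chromosome 1 was at 2 copies in both, with log2 values of 0.031 and -0.048. The genes of type VI collagen therefore had unlike copy-number calls in each line, although Col6a1, Col6a2 and Col6a3 were all at 2 copies in 15376T.

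Fibril-associated collagens bind to the surface of fibrils. Col9a2 and Col16a1 on chromosome 4 were called lost in both lines, with a log2 of -0.59 in 15376T and -0.39 in 14837T. Col12a1, a gene of tendon and of activated fibroblasts, was called lost in 15376T (log2 -0.61), whereas its log2 of -0.21 in 14837T fell short of the threshold of -0.25. Col14a1 was gained in both (0.47 and 0.28), and Col22a1 in 15376T alone (0.26 and -0.049). Col9a3 and Col20a1 shared a segment of chromosome 2 at 2 copies, with log2 values of -0.090 and -0.069. Col9a1 and Col19a1 are neighbors on chromosome 1 with 4.94 kb between them. Both were at 2 copies in 15376T (log2 -0.070). In 14837T a border inside Col9a1 placed the part at lower coordinates at -0.12 and the rest, together with Col19a1, in a segment of 134 bins at -0.35, called at 1 copy.

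The remaining classes hold 1 to 4 genes each. Col7a1, which encodes the anchoring fibrils of skin, was called lost in 15376T (log2 -0.46) and at 2 copies in 14837T (log2 0.10). Network-forming Col8a1 was lost in both lines with the lowest log2 of any collagen gene in each, -0.65 and -0.49, and Col8a2 was lost in both as well (-0.59 and -0.39). Col10a1, the collagen gene of growth-plate cartilage, was at 2 copies in each (-0.10 and -0.080). The transmembrane collagen gene Col25a1 was gained in both (0.49 and 0.50). Col17a1, whose product anchors epithelial cells to the basement membrane in hemidesmosomes, was at 2 copies in 15376T (-0.071) and gained in 14837T (0.48). Col13a1 and Col23a1 were at 2 copies in each line. The multiplexin genes encode collagens of the basement membrane zone, from one of which, Col18a1, endostatin is cut. Col18a1 was at 2 copies in 15376T (log2 0.0100) and at 1 in 14837T (log2 -0.38). Col15a1 was lost in 15376T (log2 -0.59), and its log2 of 0.202 in 14837T lay just above the threshold for a gain. Col26a1 and Col28a1 were at 2 copies in both lines.

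**Figure D4:**
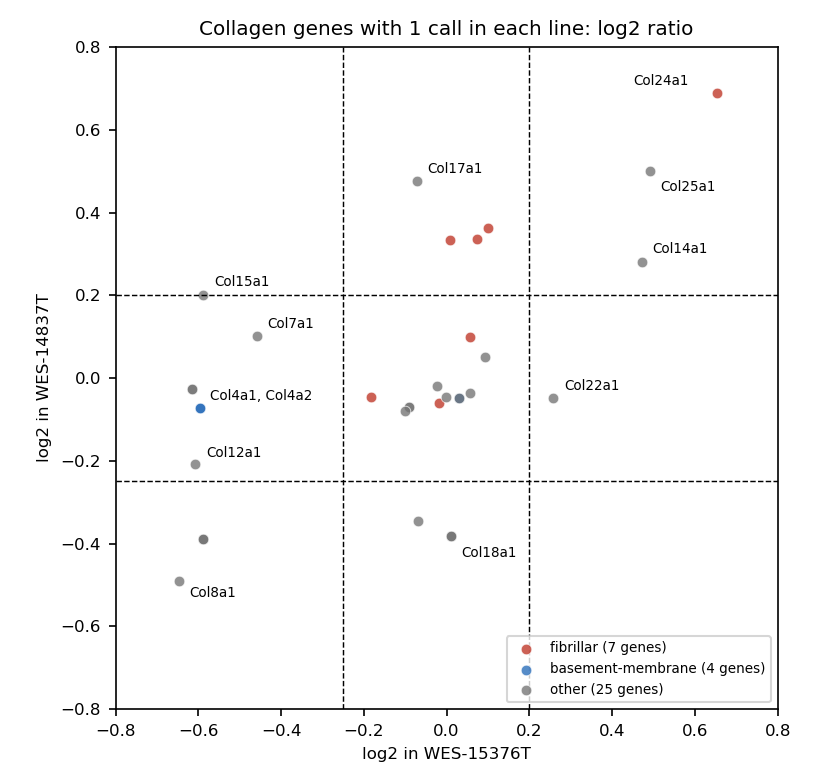
Segment log2 ratio in WES-15376T (horizontal axis) against WES-14837T (vertical axis) for the 36 collagen genes with 1 call in each line, colored by class. Dashed lines mark the thresholds for loss and gain, genes of one segment fall on the same point, and Col15a1 lies beyond opposite thresholds (-0.59 and 0.202).

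Of the 36 collagen genes with a single call in each line, 20 had the same call and 16 a different one (44.4%). Over all 21052 such genes the share with a different call was 29.3%. The 16 genes lay in 12 segments of each line, and neighboring segments of a chromosome can belong to one event, so the share rests on fewer separate values than genes. The 4 collagen genes lost in both lines were 11.1%, where the share over all genes was 22.4%. They lay in 2 segments of each line, so this share rests on few separate values. Gained in both lines were 3 genes (8.33% and 6.90%), in 3 segments of each line. Another 6 were lost in 15376T and at 2 copies in 14837T, namely Col4a1, Col4a2, Col12a1, Col6a5, Col6a4 and Col7a1 in 4 segments of each line. This was 16.7% of the members and 6.45% of all genes. The segment depths moved in the same direction as the log2 ratios for each of the 16 genes. The log2 ratio is itself made from the coverage of the line, so this is not separate evidence for the differences. Differences in log2 ratio ranged from -0.79 (Col15a1) to 0.39 (Col6a1, Col6a2 and Col18a1). For Col22a1 the difference in log2 ratio was 0.31 and that in log2 depth 0.68.

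Several collagen genes were cut by the border between a pair of segments. In 15376T, 3 of 42 collagen genes (7.14%) were named by more than 1 segment, where the share over all genes was 0.369%. In 14837T it was 4 of 42 (9.52%), beside 0.544%. Collagen genes are long, with a median RefSeq length of 110.4 kb, and 24 of them span at least 100 kb. Among these 24, a border fell inside 2 in 15376T (8.33%) and 3 in 14837T (12.5%), where all genes of that length had shares of 1.36% and 2.34%. The genes with a border were Col3a1, Col5a2 and Col11a1 in 15376T, and Col9a1, Col5a2, Col27a1 and Col6a6 in 14837T. Col5a2 was the only one with a border in both lines, and this border was at the same base. In 15376T, the borders in Col3a1 and Col5a2 were the ends of a single short segment. The genes with a border are therefore not separate values, and the shares rest on few segments. Collagen genes have many exons, and the part of the number of bins per gene in these shares was not tested, since bins are given only for the genes that the gene tables list.

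Depths of the genes themselves were available for the members in the gene tables, 19 in 15376T and 4 in 14837T. The difference in numbers follows from the level of the log2 ratios, because genes are listed only from an absolute log2 of 0.40. Genes at one copy number varied in depth. In the segment of 15376T that holds most of chromosome 4, with a log2 of -0.59 and a depth of 29.8, Col15a1 had a depth of 36.0 over 41 bins, Col9a2 of 31.6 over 27 bins, Col27a1 of 27.3 over 59 bins, Col16a1 of 26.5 over 65 bins and Col8a2 of 17.0 over 6 bins. Depth thus ranged over more than a factor of 2 between genes that share 1 call. On chromosome 9, Col12a1 had a depth of 33.7, Col6a6 of 36.8, Col6a5 of 40.0, Col6a4 of 41.6 and Col7a1 of 35.5.

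The log2 of the own depth relative to 2-copy segments was compared with the log2 ratio of the segment for genes with at least 5 bins. In 15376T, the 18 collagen genes had a median difference of 0.19, beside 0.13 over 4548 listed genes, whose 5th and 95th percentiles were -0.68 and 0.74. Col8a2, at -0.85, was the only collagen gene outside that range. Col3a1 and Col5a2, at 0.34 and 0.46, lay at the 69.0th and 80.0th percentile of all listed genes, and so within the range of other genes. The highest value was that of Col6a4 at 0.47.

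**Figure D5:**
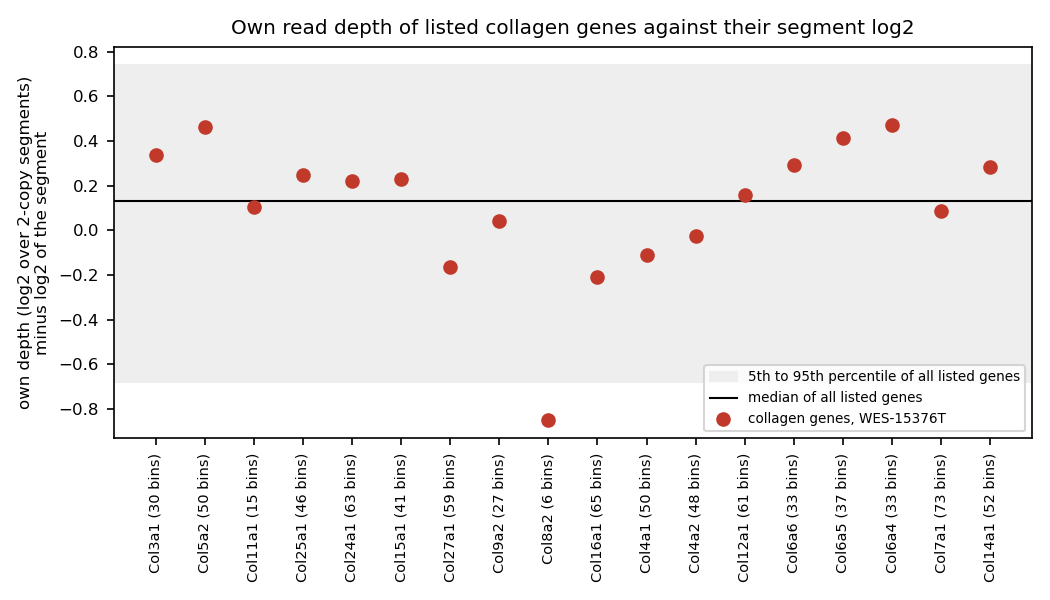
Log2 of own read depth relative to 2-copy segments minus the log2 ratio of the segment (vertical axis) for the 18 collagen genes listed with at least 5 bins in WES-15376T (horizontal axis, with their number of bins). The line marks the median of 4548 listed genes (0.13) and the band their 5th to 95th percentile (-0.68 to 0.74), and only Col8a2 at -0.85 lies outside it.

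Between the lines, own depths could be compared for Col24a1, Col25a1 and Col8a1, which both gene tables list with the same bins. Col24a1 had a depth of 84.4 in 15376T and 96.2 in 14837T over 63 bins, Col25a1 of 76.8 and 76.6 over 46 bins and Col8a1 of 24.8 and 29.0 over 2 bins. After scaling to the 2-copy segments of each line, the log2 ratios of depth were -0.14, 0.049 and -0.18. They differed from the difference of the segments by -0.11, 0.059 and -0.026. The SD of this last quantity, the depth ratio after subtraction of the segment difference, was 0.15 among the 1997 genes of at least 5 bins that both tables list. The values of Col24a1 and Col25a1 lay within that SD. Col8a1, with 2 bins, has no such reference.

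Genes that fold, process, cross-link, bind and cleave collagen were read from the same segments. Of 45 genes in this list, 44 were found. In 15376T, 2 were called gained (4.55%) and 17 lost (38.6%), where 9.13% of all genes were gained and 30.0% lost. In 14837T, 7 were gained (15.9%) and 13 lost (29.5%), where the shares of all genes were 21.4% and 28.7%. Serpinh1, which encodes the collagen chaperone HSP47, had a log2 of -0.53 in 15376T and -0.34 in 14837T and was lost in both. P3h1 and Plod1, which encode a prolyl 3-hydroxylase and a lysyl hydroxylase, were lost in both as well. Of the 16 genes found for folding and modification, 5 were lost in both lines. Others, such as P4ha1, P4ha2 and P4hb, were at 2 copies in both. Plod2, a lysyl hydroxylase gene that sets the type of cross-link, was lost in 15376T (-0.61) and gained in 14837T (0.34). Of the 5 genes for cross-linking enzymes, Lox (-0.54 and -0.53) and Loxl2 (-0.55 and -0.41) were lost in both lines. Loxl1 was lost in 15376T and at 2 copies in 14837T, and Loxl3 was at 2 copies in both. Loxl4 was at 2 copies in 15376T and gained in 14837T. In the whole list, 11 of 44 genes were lost in both lines, where the share over all genes with 1 call in each line was 22.4%.

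Among the receptors, Ddr1, a receptor tyrosine kinase for collagen, was at 2 copies in 15376T (0.074) and gained in 14837T (0.43). Ddr2 was at 2 copies in both. Itga1 and Itga2 encode the alpha chains of the main collagen-binding integrins of epithelial and stromal cells. They had log2 values of -0.032 in 15376T and -0.38 in 14837T and were called lost in the latter. Itgb1, the gene of their common beta chain, was at 2 copies in each line (0.0030 and -0.082). Of the collagen-cleaving proteases, Mmp14, the membrane-bound collagenase, was lost in both lines (-0.55 and -0.31). Mmp8 and Mmp13, both on chromosome 9, were at 2 copies in 15376T (-0.10) and just above the threshold for a gain in 14837T (0.203).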

How the data were processed

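Exome libraries of the lines 15376T and 14837T were analysed, 1 per line. The RNA samples and the tail DNA were not analysed here. A further allele of the lines is not reported here. The authors deposited a table of segments and a table of genes for each line, and the submitters' processing notes name the build mm10. The copy-number software, the reference and the filters are not given in the sources used here. The paper's methods name a NimbleGen human exome library and the labels an Agilent SureSelect human kit, both designed for human exons. The deposited log2 values are ratios of coverage to a reference, the deposited BAF is a fraction, and the deposited depth is a coverage signal without normalization. The bin weights deposited are a score and were not used. Since the files give neither read counts nor the scatter of bins, the error of a single segment is unknown.

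Starts were written counting from 1. Copy numbers were used as the authors called them. They followed log2 thresholds of 0.2 and -0.25 without exception. A gene named by several neighboring segments was counted as divided where their calls differed, and its log2 in medians was weighted by the overlap with its RefSeq span on GRCm38.p6. Own depths were divided by the bin-weighted mean depth of 2-copy segments. Calculations used Python 3.11.15, numpy 2.4.6 and pandas 2.3.3, figures used matplotlib 3.10.9, and the calling steps were tested on simulated segments. The members, classes and lists were chosen with earlier results of these data known. Named genes are all fibrillar and type IV genes, neighboring pairs, members with different calls or a border, and the 3 highest and 3 lowest per line. Some others and the pathway genes were named as examples after their values were seen. The alternatives tried were a call threshold of 0.3 or 0.5 on the absolute log2, recentred log2, the segment over the gene's midpoint, segments counted once, multiplexins moved to the basement-membrane class, another scaling of depth and a minimum of 5 bins. The shortest segment, medians without Col3a1 and Col5a2, and the limit of 100 kb were added after the data were seen.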

Additional observations from a re-analysis of the deposited data

Results flagged for a closer look

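Col15a1 was picked out because the lines lay beyond opposite thresholds. Its call was a loss in 15376T but a gain in 14837T, and the log2 ratios differed by -0.79. The difference was not tested, since each line has 1 library. The difference in log2 segment depth was -0.79 as well, but coverage enters the log2 ratio, so this is not separate evidence. The gain in 14837T rests on a log2 of 0.202 against a threshold of 0.2. With calls from an absolute log2 of 0.3, Col15a1 would be at 2 copies in 14837T.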

How the results depend on the processing

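Of the 104 values recomputed under the alternatives, 88 stayed within 1.5 times the count or within the SD of 2-copy segments, and 16 did not. With calls from an absolute log2 of 0.5, 1 gene was gained and 1 divided in 15376T. In 14837T 2 were gained, 0 lost, 40 at 2 copies and 0 divided. By class this left 0 other collagen genes gained in 15376T, and in 14837T 1 fibrillar gene gained and 0 lost, and 1 other gene gained and 0 lost. The threshold lies beyond the log2 of most calls in 14837T. With calls from 0.3, 2 other collagen genes were gained in 14837T. With the segment over the midpoint or the shortest segment, 0 genes were divided in either line, by construction. The number of genes with different calls stayed within 1.5 times its value under each alternative, as did all class medians within the SD. Smallest changes are limited by segments of 12 bins or more in 15376T and 19 in 14837T. No paired analysis was possible because no test between groups was made with 1 library per line.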
